A study of Mus musculus with 3 samples.

Results

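The miRNAs described here are the mature products of the miR-199 and miR-214 genes in matrix vesicles (MVs). All features for mouse miRNAs whose names begin with miR-199a, miR-199b or miR-214 were taken, which gave 5 of the 1079 mouse miRNAs on the array. They are mmu-miR-199a-3p, mmu-miR-199a-5p, mmu-miR-199b-5p, mmu-miR-214-3p and mmu-miR-214-5p, written below without the species prefix mmu. MVs are small membrane vesicles that osteoblasts release into the unmineralized extracellular matrix (ECM) and that start its mineralization. They were isolated 3 times independently from the ECM of MC3T3-E1 cells, an established osteoblastic line from mouse calvaria, with 500 units/mL collagenase and ultracentrifugation. The labels place the cells in osteogenic medium with β-glycerophosphate, whereas the methods took MVs from cultures without it. Total RNA of each isolation (100 ng) was labeled with Cy3 and hybridized to 1 array, so there are 3 arrays of 1 group, with no parent cells and no second condition.

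A miRNA hairpin is cut into a 5p and a 3p strand, and the strand that is retained guides silencing through its seed, bases 2 to 8. Mir199a-2 and Mir214 are processed from the same long non-coding RNA, Dnm3os, which is transcribed opposite to the dynamin gene Dnm3 and is required for normal skeletal growth in mice. Both miRNAs are typical of mesenchymal cells. miR-214-3p is known to restrain osteoblasts through Atf4 and to favor osteoclast formation, and miR-199a-3p is known to silence Mtor, Met and Cd44.

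The mature sequences show which signals the array can separate. RefSeq tables of the mouse assembly GRCm38.p6 gave sequences for 4 of the 5 members, and miR-199b-5p had no entry. The seeds are in capitals, 5′ to 3′.
miR-199a-3p: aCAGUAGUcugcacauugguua
miR-199a-5p: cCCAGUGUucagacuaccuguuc
miR-214-3p: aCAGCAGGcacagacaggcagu
miR-214-5p: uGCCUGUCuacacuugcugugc
The 4 seeds all differ. The seeds of miR-199a-3p and miR-214-3p differ by the substitutions U5C and U8G, with the base of miR-199a-3p first and positions counted from the 5′ end. Of the 867 mouse miRNAs of the array with a sequence by name, 1 other carries a seed of these 4, namely miR-761, which shares that of miR-214-3p and was not detected in any isolation. Among the same 867, no other sequence was nearer than 8 edits to any of the 4. miR-199b-5p is not among them. It is a close homolog of miR-199a-5p, and shared signal between their features was not tested.

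The genes behind these strands are not equally separable. miR-199a-3p and miR-199a-5p are made from Mir199a-2 (chr1:162217883-162217904 and chr1:162217844-162217866, plus strand) and also from Mir199a-1 (chr9:21496498-21496519 and chr9:21496537-21496559, minus strand). miR-199b-3p, from Mir199b on chromosome 2, has the same sequence as miR-199a-3p with 0 substitutions, so the feature for miR-199a-3p reads the 3p strand of 3 genes. miR-214-3p and miR-214-5p come from Mir214 alone (chr1:162223438-162223459 and chr1:162223397-162223418, plus strand). Mir199a-2 and Mir214 both lie within Dnm3os, 5444 bases apart and on the opposite strand to Dnm3. Mir199a-1 lies within Dnm2 and Mir199b within Dnm1, each on the opposite strand of its dynamin gene. The signals of miR-199a-3p and miR-199a-5p can therefore not be assigned to Dnm3os, and those of miR-214-3p and miR-214-5p are the products specific to it.

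The hairpins of the Dnm3os pair, from GRCm38.p6, carry the measured strands in capitals, the 5p strand first.
Mir199a-2: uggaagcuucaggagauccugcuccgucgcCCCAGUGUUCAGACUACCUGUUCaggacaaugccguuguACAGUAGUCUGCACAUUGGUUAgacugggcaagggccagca
Mir214: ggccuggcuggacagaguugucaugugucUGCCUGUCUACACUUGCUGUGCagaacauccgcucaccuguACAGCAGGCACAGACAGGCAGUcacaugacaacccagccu
They cover chr1:162217814-162217923 and chr1:162223368-162223477 on the plus strand.

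Isolation 1 stood apart from the other isolations before any member was considered. Detection follows the call of the scanner software. Isolation 1 had 7.97% of all mouse miRNAs above detection, against 16.6% for isolation 2 and 15.2% for isolation 3, with 16.7% found at least once and 7.78% found in all 3. The values are total gene signals, an intensity on a linear scale without normalization between arrays, and the software gives an error for each signal within its array. Among the 84 miRNAs detected in all isolations, the mean log2 signal of isolations 2 and 3 lay a median of 1.12 above that of isolation 1. The mean signals of the members are therefore given with and without isolation 1.

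All 5 members were detected in isolations 2 and 3, and 3 of the 5 in isolation 1. The 3 members detected throughout were miR-199a-3p, miR-199b-5p and miR-214-3p. miR-199a-5p and miR-214-5p were missed in isolation 1, as were 48.8% of the 164 mouse miRNAs detected in both other isolations. Without isolation 1, all 5 members were detected in every array. The members were thus found in a profile in which most miRNAs of the array were not detected.

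The 3p strand of miR-199a was the brightest member in isolations 2 and 3. The signal of mmu-miR-199a-3p was 11.8 ± 2.70 (software error) in isolation 1, 268.0 ± 21.1 in isolation 2 and 210.0 ± 16.8 in isolation 3. On the log2 scale the mean was 6.45 ± 2.50 (SD, n = 3), and 7.89 without isolation 1. The low value of isolation 1 makes up most of this SD.

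The signal of mmu-miR-214-3p, the brighter strand of Mir214, was 15.3 ± 2.87, 137.9 ± 11.8 and 100.8 ± 9.13 in isolations 1, 2 and 3. Its mean log2 signal was 5.90 ± 1.72 (SD, n = 3), and 6.88 without isolation 1. That of miR-199b-5p, the 5p strand of the gene within Dnm1, was 9.44 ± 2.61, 132.1 ± 11.3 and 98.5 ± 8.81, with a mean log2 signal of 5.64 ± 2.09 (SD, n = 3), and 6.83 without isolation 1. These 2 members were close together in isolations 2 and 3, at 1.04 and 1.02 times each other, which is less than their combined error.

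The remaining strands were dimmer and had no level in isolation 1. The signal of mmu-miR-199a-5p was 95.8 ± 9.27 in isolation 2 and 67.8 ± 6.93 in isolation 3. That of miR-214-5p was 22.05 ± 2.76 and 18.3 ± 2.60. In isolation 1, no mouse miRNA was called at a signal under 4.87, and this value was used as the bound there. The bound assumes that a missed miRNA lay below the dimmest called one. The values cannot show it, since all undetected features carry a signal of 0.1. With this bound the mean log2 signals were at most 4.98 ± 2.35 for miR-199a-5p and 3.65 ± 1.19 for miR-214-5p (SD, n = 3). Without isolation 1 they were 6.33 and 4.33, so the bound sets much of the lower means.

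**Figure D1:**
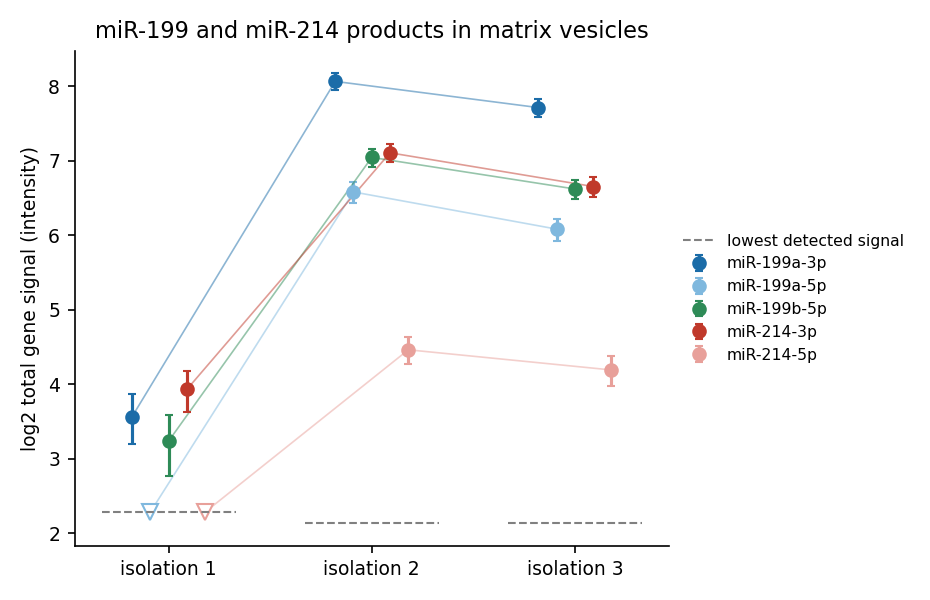
Log2 total gene signal of each member (y axis) in the 3 isolations (x axis). Bars are the software error of each signal, open triangles mark undetected members at the lowest detected signal of the array and dashed lines give that signal. All 5 members are higher in isolations 2 and 3 than in isolation 1, and miR-214-3p is above miR-199a-3p in isolation 1 only.

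In the order of signals within an array, miR-199a-3p took place 19 among the 179 miRNAs called in isolation 2 and again 19 among the 164 of isolation 3. miR-214-3p was at places 31 and 34, miR-199b-5p at 33 and 36, miR-199a-5p at 45 and 50, and miR-214-5p at 121 and 108. The order of the 5 members was the same in both arrays, although miR-214-3p and miR-199b-5p did not differ beyond their error. In isolation 1, miR-214-3p was at place 62 of 86, miR-199a-3p at 64 and miR-199b-5p at 74. The members were thus in the brighter part of isolations 2 and 3, apart from miR-214-5p, and in the dimmer part of isolation 1. Probes differ in their response, so these are orders of signals and not of RNA amounts.

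A share of the summed signal needs no shift between arrays. The detected members together took 0.270% of the summed signal of detected mouse miRNAs in isolation 1, 1.54% in isolation 2 and 1.41% in isolation 3. For miR-199a-3p alone the share was 0.0874%, 0.631% and 0.597%. For miR-214-3p it was 0.113%, 0.325% and 0.286%. Both shares were lower in isolation 1, and the shares of isolations 2 and 3 lay close together.

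The members detected throughout all had a lower signal in isolation 1. The mean log2 signal of isolations 2 and 3 minus that of isolation 1, called the change here, was 4.32 for miR-199a-3p, a ratio of 20.03. It was 3.59 for miR-199b-5p (ratio 12.1) and 2.95 for miR-214-3p (ratio 7.72). For the members missed in isolation 1, the assumed bound gave a ratio of at least 16.5 for miR-199a-5p and at least 4.12 for miR-214-5p. Each isolation is 1 array, so these changes have no replicate and no test. A smaller part of MV RNA in the labeled total and less of these miRNAs per vesicle cannot be told apart on these arrays.

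Against the miRNAs detected in all isolations, the members were among those that differed most between isolations. In the order of this change among the 84 miRNAs detected in all isolations, miR-199a-3p was at place 1, miR-199b-5p at place 6 and miR-214-3p at place 8. This order leaves out the 80 miRNAs missed in isolation 1. With the assumed bound, miR-24-3p, miR-29a-3p and miR-99a-5p among them had changes of at least 4.50, 4.39 and 4.35. When these bounds are included, miR-199a-3p is not first. A change of over 2 log2 units was seen for 3 of the 3 members detected throughout, and for 20.2% of all 84. With a missed miRNA set to the lowest detected signal of isolation 1, it was seen for 5 of 5 members, and for 29.3% of the 164 miRNAs detected in isolations 2 and 3. The value of miR-214-5p, 2.04, passed narrowly and rests on this assumed bound. The median of the 3 members was 3.59, against 1.12 for all 84, and with the bounds included the median of the 5 members was 3.59, against 1.44 for all 164. With isolation 2 or 3 used alone, miR-199a-3p stayed at place 1 and miR-199b-5p at place 6, and miR-214-3p was at place 10 or 9.

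The first places were not separated by more than the error of single arrays. The change of miR-199a-3p had an error of 0.34, combined from the software errors of its 3 signals. It exceeded that of miR-21a-5p, at the next place, by 0.14, with a combined error of 0.51. The change of miR-214-3p was below that of miR-199a-3p by 1.38, with a combined error of 0.44. Thus miR-199a-3p and miR-214-3p differed in their change by 3.10 times the error of these arrays, whereas miR-199a-3p and miR-199b-5p differed by 1.37 times. The change of miR-199b-5p exceeded that of miR-214-3p by 0.65, which is 1.30 times its combined error, so the order of these 2 members was not clearly resolved.

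The members were also set against miRNAs of similar signal, within 1 log2 unit of the mean of isolations 2 and 3. For miR-199a-3p there were 19 such miRNAs, all detected in isolation 1, and all 19 had a smaller change, with a median of 1.11 and a highest value of 4.18. In a narrower window of 0.5 log2 units, the 9 similar miRNAs had a median of 2.80, so that the excess of miR-199a-3p fell from 3.21 to 1.52. For miR-199b-5p, 31 of 34 similar miRNAs detected in all isolations had a smaller change. The 3 that did not were miR-21a-5p, miR-22-3p and let-7a-5p. For miR-214-3p, 29 of 34 such miRNAs had a smaller change, and those with a larger one were the same 3 miRNAs, miR-199b-5p and miR-3968. For both members, another 11 miRNAs of similar signal were missed in isolation 1 and are not in these counts. With the assumed bound in isolation 1, their changes had lower bounds of 3.75 to 4.50, above the changes of both members. Whether they changed more than the members is not known without a level there. Of the miRNAs with a signal like that of miR-199a-5p, 14 of 51 were missed in isolation 1, and of those like miR-214-5p, 50 of 71. By signal, miR-199a-5p was at place 5 of the 80 miRNAs missed in isolation 1 and detected in both others, and miR-214-5p at place 29.

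**Figure D2:**
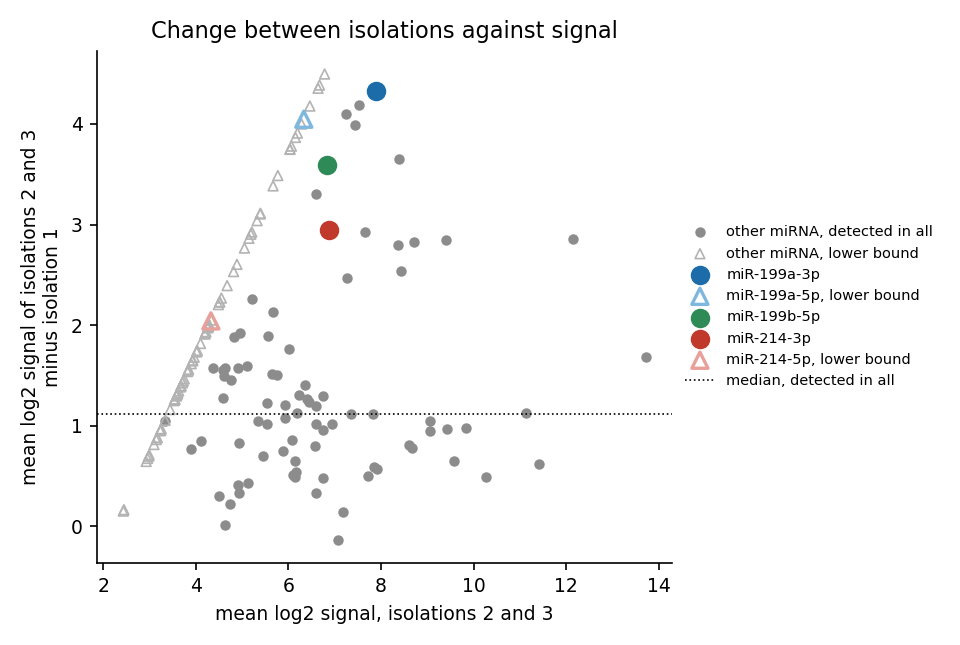
Mean log2 signal of isolations 2 and 3 minus that of isolation 1 (y axis) against the mean log2 signal of isolations 2 and 3 (x axis) for the 164 mouse miRNAs detected in both. Open triangles are assumed lower bounds for miRNAs missed in isolation 1, which lie on a line because 1 value stands for isolation 1. The dotted line is the median of 1.12, and miR-199a-3p is the highest filled point, at 4.32, with 3 lower bounds above it.

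Between isolations 2 and 3 the members differed little, and in the same direction. The log2 signal of isolation 3 minus that of isolation 2 was -0.35 for miR-199a-3p, -0.50 for miR-199a-5p, -0.42 for miR-199b-5p, -0.45 for miR-214-3p and -0.27 for miR-214-5p. All 5 members were thus lower in isolation 3, with a median of -0.42. Over the 164 miRNAs detected in both arrays the median was -0.39, with quartiles of -0.71 and -0.24. The values of all 5 members lay within these quartiles.

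In both hairpins with both strands on the array, the 3p strand gave the higher signal. For miR-199a, the 3p signal was 2.80 times the 5p signal in isolation 2 and 3.10 times in isolation 3. The difference was 7.47 and 7.83 times its combined error. For miR-214, the 3p signal was 6.25 and 5.51 times the 5p signal, with a difference of 9.53 and 8.69 times its error. In isolation 1, with the assumed bound, the ratio was at least 2.43 for miR-199a and at least 3.13 for miR-214. The 3p strand of miR-199a may include that of Mir199b, whereas the 5p strands of the 2 genes have separate features. With 3 arrays, an exact paired permutation test cannot give a two-sided p below 0.25, so the difference between strands was not tested.

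Detection of both strands was uncommon on these arrays. Of the 384 pairs with both strands on the array, 89 had at least 1 strand detected in isolations 2 and 3, and 8 had both. miR-214 and miR-199a are 2 of these 8. The 3p strand was the brighter in 6 of the 8. The mean log2 difference of 3p minus 5p in isolations 2 and 3 was 2.55 for miR-214 and 1.56 for miR-199a, and over the other 6 pairs its size had a median of 0.60 and a highest value of 1.44, for miR-652. Only the miR-652 pair had both strands detected in isolation 1 as well. For miR-199a, the 3p feature also reads the strand of Mir199b. The feature of miR-199b-5p, at 132.1 and 98.5 in isolations 2 and 3, is not in its 5p value. Its difference is therefore not on a like basis with the other pairs. Pairs with only 1 strand detected were left out, so larger differences among them would not be seen here.

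**Figure D3:**
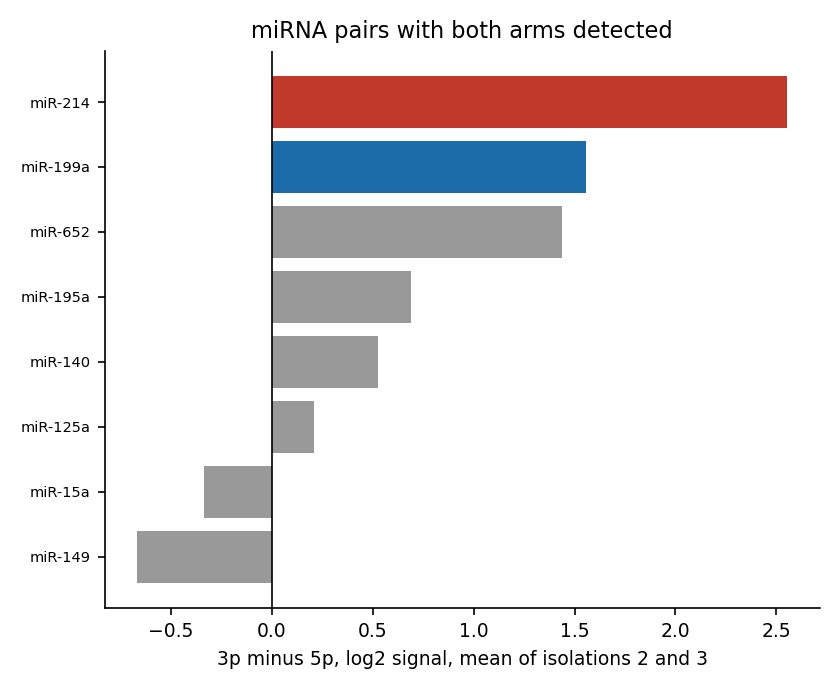
Log2 signal of the 3p strand minus that of the 5p strand, as the mean of isolations 2 and 3 (x axis), for the 8 miRNA pairs with both strands detected in these isolations (y axis). The bars for miR-214 (2.55) and miR-199a (1.56) are the longest, and 2 pairs have a brighter 5p strand. The 3p feature of miR-199a also reads the strand of Mir199b, whose 5p strand is not in this bar.

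The strands missed in isolation 1 were the dimmer of each pair. If miR-199a-5p had changed as much as miR-199a-3p, its signal in isolation 1 would be 4.02, and miR-214-5p with the change of miR-214-3p would be at 2.60. Both values are below 4.87, the lowest signal detected there. The missing calls therefore set no difference in change between the strands of a pair.

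The ratio of miR-199a-3p to miR-214-3p was similar in isolations 2 and 3 and lower in isolation 1. The signal of miR-199a-3p was 1.94 times that of miR-214-3p in isolation 2 and 2.08 times in isolation 3, differences of 5.38 and 5.72 times their combined error. In isolation 1 it was 0.776 times that of miR-214-3p, a difference of 0.868 times its error. The order of these members was therefore resolved in isolations 2 and 3 and not in isolation 1. The 5p strands of the homologous genes differed less. miR-199b-5p was 1.38 and 1.45 times as bright as miR-199a-5p in isolations 2 and 3, by 2.48 and 2.74 times the error. Shared signal between their features was not tested.

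The miRNAs nearest in pattern were found from the changes from isolation 1 to 2 and from 2 to 3, by Euclidean distance in log2 units over the 84 miRNAs detected in all 3 arrays. For miR-199a-3p they were miR-21a-5p (distance 0.17), miR-22-3p (0.23), let-7a-5p (0.30), let-7c-5p (0.69) and miR-199b-5p (0.70). For miR-214-3p they were miR-5100 (0.15), miR-125b-5p (0.15), miR-3473b (0.17), miR-720 (0.26) and miR-3963 (0.32). None of the 5 was shared between the 2 lists, but with only 5 of 84 miRNAs in each, this does not set 2 patterns apart. With 3 arrays, this distance rests mainly on isolation 1.

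Other miRNAs known from mesenchymal cells and osteoblasts also differed between isolation 1 and the others. Of the 18 listed miRNAs without the members, 3 were detected in isolation 1, against 7.97% of all mouse miRNAs. In both isolations 2 and 3, 16 of the 18 were detected, against 164 of all 1079. miR-143-3p and miR-145a-5p, typical of smooth muscle and fibroblasts, were not detected in any isolation. The change of the 3 detected throughout was 2.80 for miR-125b-5p, 4.10 for miR-22-3p and 4.18 for miR-21a-5p. With missed miRNAs set to the lowest detected signal of isolation 1, 14 of the 16 had a change of over 2 log2 units, including miR-24-3p (at least 4.50) and miR-29a-3p (at least 4.39), against the 29.3% of all miRNAs given above. The median of the 16 was 3.81 with these bounds, and that of the 143 miRNAs outside both lists was 1.31. The bound of a missed miRNA rises with its signal in isolations 2 and 3. These medians therefore also follow brightness and do not set the list apart. Of the 143, 29 had a change of over 2 log2 units as well, among them let-7f-5p (at least 4.18) and let-7a-5p (3.99).

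The summed signal of the 18 was 66.5, 1669 and 1225 in isolations 1, 2 and 3. Of 20 miRNAs known from blood cells, endothelium, liver, neurons, muscle and epithelium, 1 was detected, the muscle miRNA miR-206-3p, with a summed signal of 7.71, 37.4 and 21.7. Over all mouse miRNAs, only 16.7% were detected in at least 1 isolation, so this low count does not by itself set these lists apart. All 6 of blood cells, 2 of endothelium, 1 of liver, 3 of neurons and 5 of epithelium were undetected in all isolations. The part of this mesenchymal content in the change of the miR-199 and miR-214 products was not tested.

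**Figure D4:**
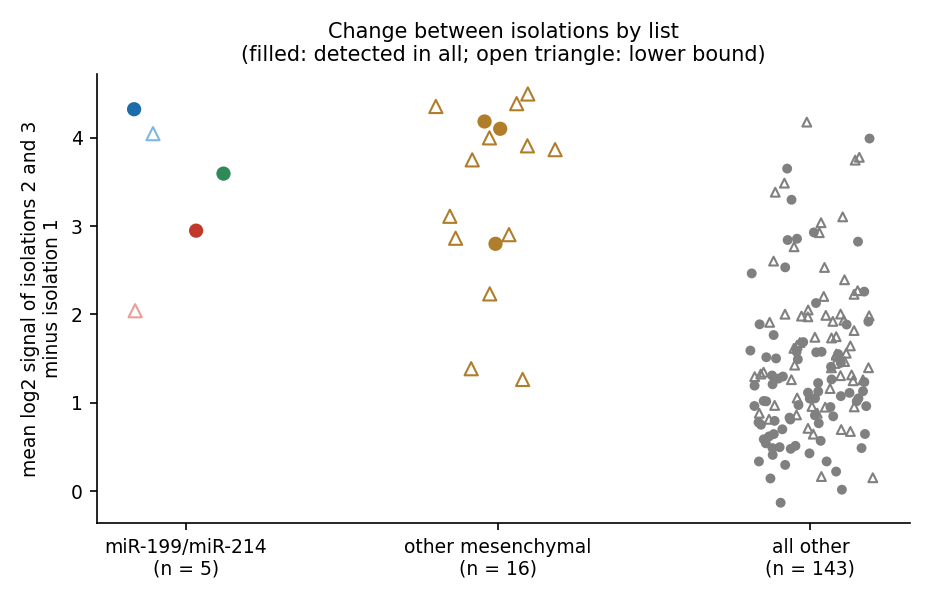
Mean log2 signal of isolations 2 and 3 minus that of isolation 1 (y axis) for the 5 members, the 16 other mesenchymal miRNAs and the 143 remaining mouse miRNAs detected in isolations 2 and 3 (x axis, points spread sideways for clarity). Filled points were detected in all isolations, and open triangles are assumed lower bounds. All 5 members lie above 2, as do 14 of the 16 and 29 of the 143.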

How the data were processed

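Total RNA of MVs from 3 independent isolations was measured on 1 SurePrint G3 mouse miRNA array each. The authors deposited 1157 features per array as an intensity (total gene signal, not normalized across arrays) with its error and detection call. The submitters' processing notes name Agilent Feature Extraction 10.10.1.1. Undetected features carry a signal of 0.1 and an error of 1. No signal was identical between arrays among miRNAs detected in both (0 in each of the 3 pairs).

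Control features and the 57 viral features were left out. Signals were taken as log2 without a shift. Where a miRNA was not called, the dimmest called mouse miRNA of the same array stood in. Such values are bounds only if the missed miRNA was dimmer, which was assumed. A shift by the 90th percentile of all mouse miRNAs was an alternative only, since in isolation 1 this percentile lies on undetected miRNAs. Combined errors are the root of summed squares of the software errors, which cover technical error within an array. No groups were compared. The members, lists and rules were chosen with earlier results of these data known. miRNAs named are the members, those nearest in pattern, seed or sequence, the listed miRNAs, and a few others chosen after their values were seen (miR-652, miR-3968). The features found in the tables used here did not include miR-3120. A comparison of GC content was void, since 66.7% of the 84 miRNAs had a sequence by name. The number of arrays limits the precision. The functions for the change and for miRNAs of similar signal were tested on simulated arrays without missed miRNAs. The other calculations were not tested in this way. Calculations used Python 3.11.15, numpy 2.4.6, pandas 2.3.3, scipy 1.17.1 and matplotlib 3.10.9.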

Additional observations from a re-analysis of the deposited data

How the results depend on the processing

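Of 91 values under the alternatives, 71 were held as the same and 20 as moved. The limit was the spread between isolations, except that counts of members were judged by their ratio. Isolation 1 widens this spread for signals and places. Without isolation 1, the mean log2 signal of miR-199a-3p went from 6.45 to 7.89 and its mean place from 34 to 19. Both were still held as the same. For members detected in every array, the settings for undetected arrays cannot alter the mean signal. The tally is therefore no measure of robustness. A change of direction was looked for only in the changes between isolations and the strand differences, and 0 of these reversed. Isolation 1 decides the number of members detected in all isolations, 3, which was 5 in at least 2 or at least 1 isolation and 3 to 5 with each isolation left out. The log2 signals moved mostly with the zero of the scale. With the 75th percentile over miRNAs detected in all isolations as zero, the means were -0.76 for miR-199a-3p, -2.23 for miR-199a-5p, -1.58 for miR-199b-5p, -1.31 for miR-214-3p and -3.57 for miR-214-5p. With the 90th percentile of the whole mouse set, miR-214-3p was at 4.04 and miR-214-5p at 1.79. The excess of the members' median change over that of all miRNAs, 2.47, was 2.13 with the 75th percentile as the reference and 2.16 with missed miRNAs included. It was 3.20 for miR-199a-3p alone and 1.83 for miR-214-3p alone, the only miR-199a and miR-214 strands detected in all isolations. Against similar signal, the excess of miR-199a-3p was 1.52 in the window of 0.5. It was 3.00 with the window set by isolation 3 and the change taken from isolation 1 to 2. With missed miRNAs included, the excess was 2.33 for miR-199b-5p and 1.68 for miR-214-3p. A floor of 1 for undetected strands widened the 3p minus 5p difference from 1.47 to 2.23 for miR-199a and from 2.25 to 3.01 for miR-214. The change from isolation 1 has no value without isolation 1, and quantile normalization none for the members missed there. No paired analysis was possible because there is no second group to pair the isolations with, and differences between strands are already taken within arrays. Signals under the dimmest called miRNA of an array have no level.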
